A study of Homo sapiens with 6 samples.

Results

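The 2 siRNAs designed against TIMM13 were compared with each other in A549 cells, a human lung adenocarcinoma cell line: 2 libraries transfected with TIMM13 siRNA 1 were set against 2 transfected with TIMM13 siRNA 2, out of 6 libraries in the series. The other 2 libraries carried a non-targeting control siRNA and are given as the level both reagents started from. RNA was poly(A)-selected, and the strand-specific libraries were read by sequencing. The siRNA groups carry the genotype label TIMM13 knockdown and the control group WT, while every sample also carries the treatment label cell differentiation, which does not separate the groups. No source used here states the dose, the time after transfection or whether replicates were separate cultures, so p-values measure only the spread between these libraries. A gene was tested where 2 or more of the 4 TIMM13 siRNA libraries reached a value of 1, which 11252 of the 19990 genes in the table did. Each tested value comes from bulk RNA, in which fewer cells of a type and less RNA per cell cannot be told apart.

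An siRNA is a short RNA duplex of which a single strand is loaded into an Argonaute protein and guides it to a matching mRNA, which is then cut. A loaded strand can also lower mRNAs that match only its seed, the bases near its 5' end, in the manner of a microRNA, and a duplex can be sensed by innate receptors of double-stranded RNA. A pair of siRNAs with unlike sequences against 1 mRNA therefore shares the intended target but need not share other targets, and a direct comparison shows where the 2 reagents part. TIMM13 itself works with TIMM8A as a hexameric chaperone of the mitochondrial intermembrane space, which carries hydrophobic membrane proteins from the outer-membrane pore to the inner membrane.

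The intended target is shown by its coding sequence, because both reagents were made against this mRNA and neither siRNA's own sequence was used here. It has 288 bases and 95 codons before the stop, on the minus strand of chromosome 19 between 2426948 and 2427533 (GRCh38, GENCODE 29), in 3 exons that the mRNA joins. The capitals mark its 4 cysteine codons, codons 46, 50, 65 and 69, which form the paired CX3C motifs typical of the small TIM proteins.
TIMM13: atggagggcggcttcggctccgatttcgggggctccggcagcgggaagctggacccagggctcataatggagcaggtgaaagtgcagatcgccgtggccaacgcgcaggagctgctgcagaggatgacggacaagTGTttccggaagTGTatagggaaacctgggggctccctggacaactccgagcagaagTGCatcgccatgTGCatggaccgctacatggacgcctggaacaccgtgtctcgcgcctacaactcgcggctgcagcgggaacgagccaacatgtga

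TIMM13 did not separate the reagents. It stood at 2.09 and 1.83 in the siRNA 1 libraries, 1.82 and 2.31 in the siRNA 2 libraries and 2.09 and 2.56 in the control libraries, in the depth-scaled units of the table. All 3 groups overlapped. The log2 difference, siRNA 1 minus siRNA 2 on the log2(value + 1) scale used throughout, was −0.05 (SE 0.167, 95% interval −0.49 to 0.39, limma adjusted p = 0.881), and its sign changed under the scalings tried. Against control the log2 difference was −0.16 with siRNA 1 (95% interval −0.60 to 0.27, limma adjusted p = 0.657). With siRNA 2 it was −0.12 (−0.56 to 0.32, limma adjusted p = 0.665). At values this low, these intervals do not settle whether either siRNA lowered TIMM13. Because TIMM13 was not detectably lower with either siRNA, the groups are named by their labels and no direction below is one of TIMM13 loss. LMNB2, a nuclear lamin gene on the same strand whose 3' end overlaps the start of TIMM13 (named after its values were seen), stood at 30.9 and 24.7 with siRNA 1, 13.8 and 8.98 with siRNA 2 and 15.4 and 13 in control (adjusted p = 0.0851, not called).

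The libraries were unequal in quality of agreement. The replicates of siRNA 1 were over 2-fold apart at 7.15% of tested genes, those of siRNA 2 at 19.6% and those of control at 7.83%. The total of the table was 216524 and 219820 in the siRNA 1 libraries, 205986 and 299936 in the siRNA 2 libraries and 209245 and 209559 in control, so replicate 2 of siRNA 2 stood apart, and its log2 values correlated at 0.8 across genes with its own replicate against 0.891 between the siRNA 1 libraries. The table holds no counts, so depth is unknown. Differences are therefore also given against each siRNA 2 library alone, and genes are marked where the lower library of 1 siRNA was at least 2 times the higher library of the other on the value + 1 scale (a 2-fold gap), which a single library cannot produce. The epithelial markers KRT8, KRT18, KRT19 and CDH1 were at 6.69 or more in all libraries, while the lung lineage markers NKX2-1, SFTPB and NAPSA were below 1. The 19 markers of leukocytes, fibroblasts and endothelium summed to 4.96 and 5.34 with siRNA 1, 10 and 11.9 with siRNA 2 and 5.46 and 5.62 in control. CD14 and COL1A1 made up most of each sum, and CD14 was called lower with siRNA 1 (limma adjusted p = 0.0410). PTPRC was at most 0.00883 and CD3E was listed at 0, and the part of such cells in the results was not tested. The 13 mRNAs of mitochondrial DNA were listed at 0 everywhere.

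The reagents differed at genes of many kinds, in both directions. Limma called 391 genes at a Benjamini-Hochberg adjusted p under 0.05, which were 3.47% of those tested: 229 higher with siRNA 1 (2.04%) and 162 lower (1.44%). The median absolute difference of the called genes was 1.48, 366 differed by 1 or more and 74 by 2 or more. All 391 had the same sign against either siRNA 2 library alone, and 357 differed by 1 or more against each. Called genes are chosen for a difference that is large against the spread of these libraries. This agreement therefore follows largely from the choice, and no result is read from it. A 2-fold gap was met by 295 genes that were higher with siRNA 1 (2.62%) and 265 that were lower (2.36%), 4.98% in all, including 192 and 146 of the called genes. With every library scaled to an equal total, the gap genes were 341 higher and 192 lower. Any separation of the libraries, however small, was seen at 57.4% of genes and is not used as a result.

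**Figure D1:**
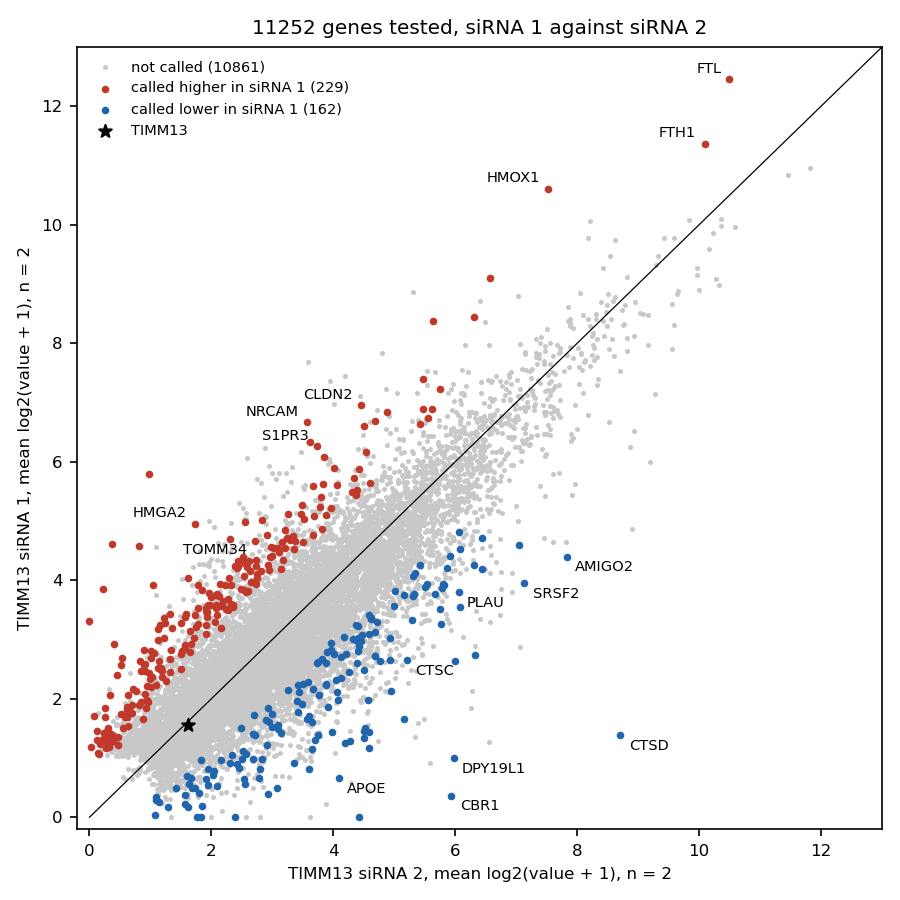
Mean log2(value + 1) of the siRNA 1 libraries (vertical axis) against the siRNA 2 libraries (horizontal axis) for 11252 tested genes, with called genes in red (229 higher with siRNA 1) and blue (162 lower). TIMM13, the star, lies beside the line of equality, while HMOX1 and the ferritin genes FTL and FTH1 lie far above it and CTSD, CBR1 and DPY19L1 far below.

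The calls depend on which libraries lend their spread to the fit. The fit gave each gene 1 spread for all 3 groups. The median SD between replicates on the log2 scale, however, was 0.323 with siRNA 2, 0.102 with siRNA 1 and 0.086 in control. A fit of the 4 TIMM13 siRNA libraries alone called 0 genes with limma, with 1977 at an unadjusted p under 0.05, and a fit in which each library was weighted by its agreement called 5. Replicate number as a block also left 0 (2419 at an unadjusted p under 0.05). Limma called 0 genes without siRNA 1 replicate 1, siRNA 1 replicate 2, control replicate 1 or control replicate 2 (1501, 1543, 1975 and 1975 at an unadjusted p under 0.05), 4586 without siRNA 2 replicate 1 and 1664 without siRNA 2 replicate 2. Where a siRNA library was left out, its group kept 1 library, which was assumed to vary like the other groups. The direction of all 391 genes was kept in each of these fits. Where no siRNA library was left out this was fixed in advance, because the difference of the group means stays the same. Where an siRNA library was left out, the genes had still been called with it, so the kept direction is no separate support.

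Both siRNA groups are compared with the same control libraries, so the position of each gene is given as a description. Of the 229 genes higher with siRNA 1, 109 were at least 2-fold from control only with siRNA 2, 29 only with siRNA 1, 8 with both and 83 with neither. Of the 162 genes lower with siRNA 1, 82 were at least 2-fold from control only with siRNA 1, 36 only with siRNA 2, 4 with both and 40 with neither. The libraries of the 2 siRNAs lay on opposite sides of both control libraries at 165 of the higher and 96 of the lower genes. At only 4 and 2 of these were both reagents at least 2-fold from control in opposite directions. Such positions were not counted over all genes tested. Called genes are chosen for siRNA groups that stand apart, so no result is read from these counts.

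**Figure D2:**
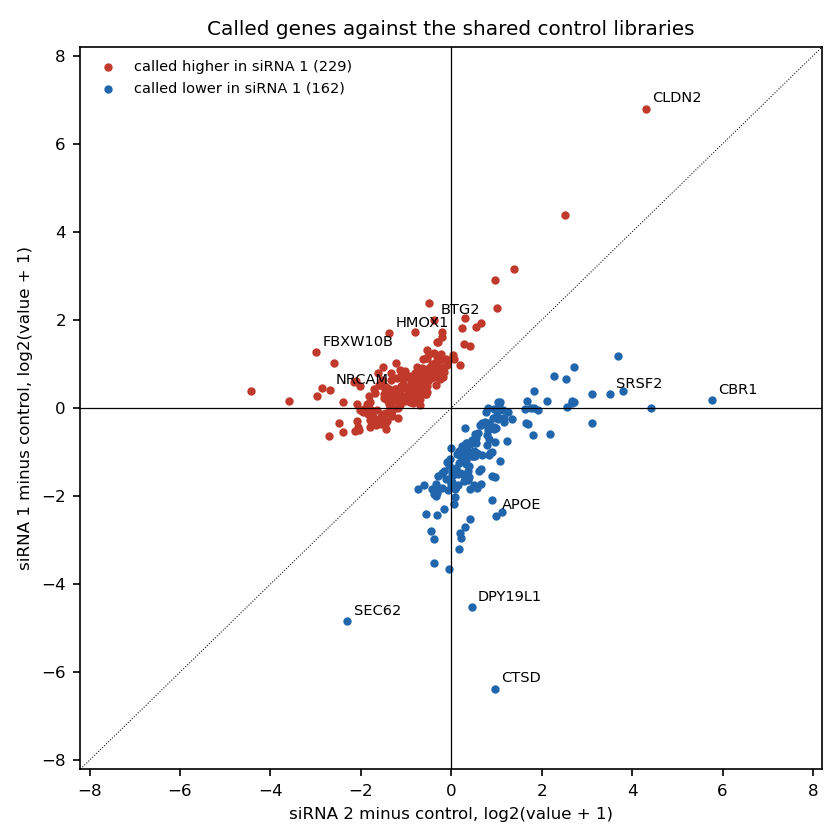
Each called gene by its log2 difference from the control libraries with siRNA 1 (vertical axis) and with siRNA 2 (horizontal axis), both on the log2(value + 1) scale and both using the same 2 control libraries; the dotted line marks equal change. Most red points (229, higher with siRNA 1) lie left of 0 on the horizontal axis, and most blue points (162, lower with siRNA 1) lie below 0 on the vertical axis.

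HMOX1, the oxygenase that splits haem and frees its iron, stood at 1608 and 1514 with siRNA 1, 162 and 207 with siRNA 2 and 465 and 488 in control. It was above control in both siRNA 1 libraries and below it in both siRNA 2 libraries, and differed between the reagents by 3.09 (SE 0.197, limma adjusted p = 0.0186). FTL, the ferritin light chain, stood at 5487 and 5810 with siRNA 1, 1293 and 1616 with siRNA 2 and 5456 and 5120 in control (difference 1.96, SE 0.195, adjusted p = 0.0314). FTH1, the ferritin heavy chain that oxidises iron for storage (named after its values were seen), stood at 2658 and 2627 with siRNA 1, 969 and 1222 with siRNA 2 and 2372 and 2420 in control (difference 1.28, SE 0.193, adjusted p = 0.0479). For FTL and FTH1 the siRNA 1 libraries lay just above both control libraries, and the siRNA 2 libraries lay far below them. TFRC, the transferrin receptor that brings iron into the cell (named after its values were seen), stood at 87.4 and 83.5, 55.5 and 43.1, and 55.3 and 54.9 in siRNA 1, siRNA 2 and control, and was not called (limma adjusted p = 0.0980).

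HMOX1, the ferritins and GCLM belong to a list of 33 genes regulated by NRF2, the transcription factor of the antioxidant response, of which 4 were called higher with siRNA 1 (all genes 2.04%) and 1 lower (all genes 1.44%). The list's median was −0.50, beside −0.10 over all genes tested. It was 0.37 against siRNA 2 replicate 1 alone and −0.78 against replicate 2, so its sign depended on the siRNA 2 library. Of the 33 members 14 were positive and 19 negative (all genes 4964 and 6288), so they did not share 1 direction. GCLM, the modifier subunit of the enzyme that starts glutathione synthesis, stood at 141 and 157 with siRNA 1, 61.5 and 45.7 with siRNA 2 and 97.2 and 94.4 in control (difference 1.47, SE 0.210, limma adjusted p = 0.0447). AKR1B10, an aldo-keto reductase, and ALDH3A1, an aldehyde dehydrogenase (both named after their values were seen), met the 2-fold gap without being called (adjusted p = 0.0637 and 0.0772). AKR1B10 stood at 1057 and 1080 with siRNA 1, 216 and 408 with siRNA 2 and 1139 and 1186 in control, and ALDH3A1 at 353 and 307, 61.5 and 129, and 156 and 145. ME1, the malic enzyme that makes NADPH (named after its values were seen), stood at 82.2 and 89.4 with siRNA 1, 60.1 and 65.1 with siRNA 2 and 31.1 and 30.5 in control (difference 0.45, 95% interval 0.04 to 0.86, adjusted p = 0.177). In the other direction, CBR1, a carbonyl reductase, stood at 0 and 0.648 with siRNA 1, 51.0 and 71.1 with siRNA 2 and 0.206 and 0.0593 in control (adjusted p = 0.0154).

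The sequence just before the start of these genes is shown because NRF2 binds the antioxidant response element, here searched as TGACNNNGC on both strands in the 250 bases before each RefSeq start (GRCh38.p14). Of 35116 such windows 10.9% held a match. GCLM held 1, in capitals on the minus strand of the gene from 34 bases before its start (chr1:93909431-93909680, gene on the minus strand), and FTL (chr19:48965059-48965308, plus strand) held 0.
GCLM: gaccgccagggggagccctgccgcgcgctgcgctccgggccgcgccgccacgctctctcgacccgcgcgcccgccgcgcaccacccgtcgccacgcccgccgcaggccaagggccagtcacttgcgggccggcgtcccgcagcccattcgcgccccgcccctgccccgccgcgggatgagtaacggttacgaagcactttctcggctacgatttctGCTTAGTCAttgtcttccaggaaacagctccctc
FTL: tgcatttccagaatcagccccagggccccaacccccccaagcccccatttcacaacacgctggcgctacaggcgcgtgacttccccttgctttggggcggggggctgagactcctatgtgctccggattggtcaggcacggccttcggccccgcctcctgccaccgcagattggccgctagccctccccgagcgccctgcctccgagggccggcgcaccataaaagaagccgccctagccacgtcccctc
The match is a description of these letters and not a measured binding site, and its absence from FTL says nothing on NRF2.

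Among targets of p53, the transcription factor of the DNA damage response, 5 of 30 tested members were called higher with siRNA 1 (all genes 2.04%) and 0 lower (all genes 1.44%). Of the 30, 22 were positive, beside 4964 of all 11252 genes, and the median was 0.33, with 0.49 against siRNA 2 replicate 1 and 0.47 against replicate 2. BTG2, an antiproliferative factor, stood at 26.7 and 23.1 with siRNA 1, 5.55 and 2.76 with siRNA 2 and 5.80 and 5.10 in control (difference 2.38, SE 0.316, limma adjusted p = 0.0423). XPC, a sensor of DNA lesions in nucleotide excision repair, stood at 16.8 and 17.4, 7.24 and 6.26, and 7.69 and 7.12 in siRNA 1, siRNA 2 and control (difference 1.23, SE 0.167, adjusted p = 0.0430). These 2 genes were above control with siRNA 1 alone. AEN, an apoptosis-enhancing nuclease, stood at 51.8 and 45.0, 16.2 and 10.8, and 38.4 and 35.8, and EDA2R, a receptor of the TNF family (named after its values were seen), at 20.1 and 20.4, 8.16 and 5.92, and 11 and 10.9. SESN2, a stress-induced inhibitor of mTORC1 signalling, stood at 10.8 and 8.31, 2.37 and 1.62, and 6.95 and 7.73, so for these 3 genes the siRNA 2 libraries lay below control.

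CDKN1A, the cell cycle inhibitor p21 (named after its values were seen), stood at 206 and 167 with siRNA 1, 83.3 and 55.9 with siRNA 2 and 17.6 and 21.2 in control. Both groups exceeded control. The siRNA libraries did not overlap, as at 57.4% of all genes, and the difference of 1.43 (SE 0.271, 95% interval 0.72 to 2.14) was not called (limma adjusted p = 0.0668). The inhibitor of apoptosis TRIAP1 and the stress cytokine GDF15 (both named after their values were seen) met the 2-fold gap and were not called either (adjusted p = 0.0560 and 0.0632). GDF15 stood at 89.7 and 119 with siRNA 1, 40.1 and 41.4 with siRNA 2 and 195 and 145 in control, and TRIAP1 at 88.1 and 89.7, 37.5 and 23.3, and 42.1 and 45.2.

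**Figure D3:**
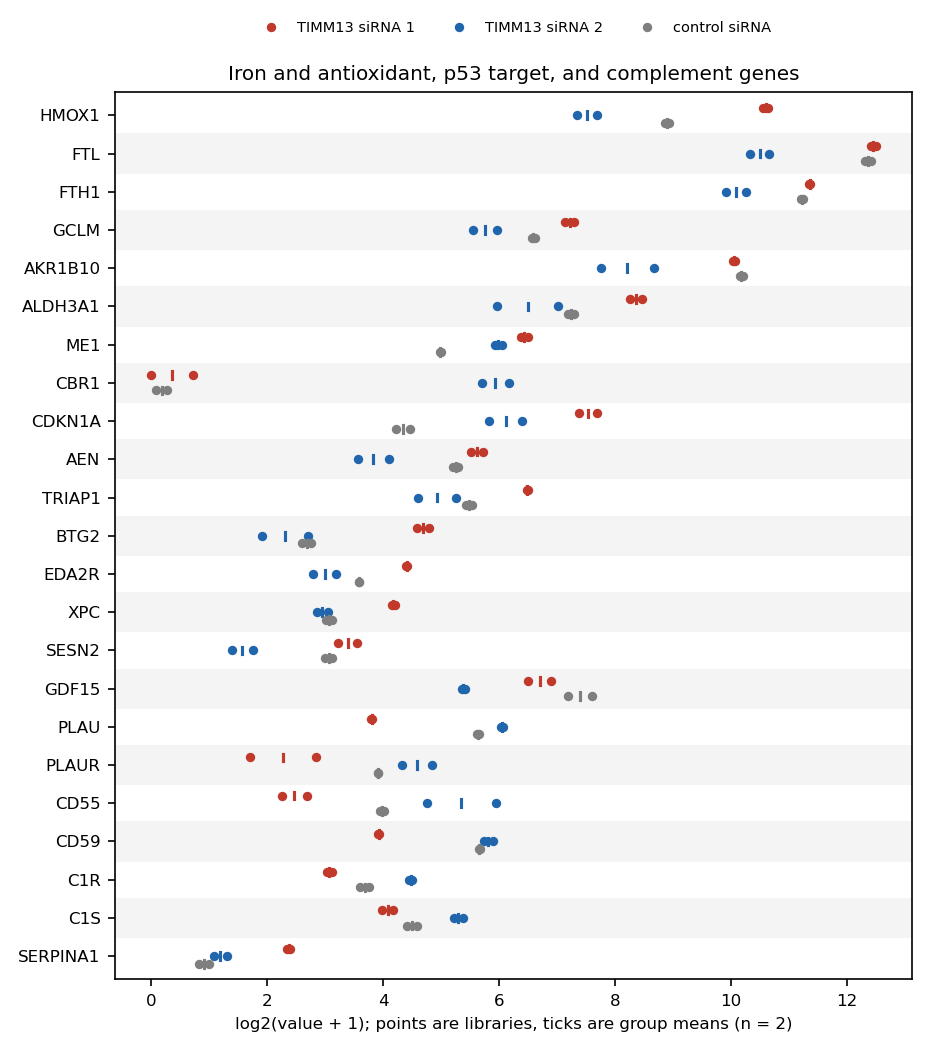
Log2(value + 1) of iron and antioxidant genes (HMOX1 to CBR1), p53 targets (CDKN1A to GDF15) and genes of plasminogen activation and complement (PLAU to SERPINA1) in each library, siRNA 1 in red, siRNA 2 in blue and control in grey, with a tick at each group's mean of 2 libraries. FTL and FTH1 with siRNA 1 sit beside control while siRNA 2 sits lower, whereas PLAU and CD59 with siRNA 2 sit near control while siRNA 1 sits lower.

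In the list of G2/M and mitotic genes, 2 of the 42 tested were called higher with siRNA 1 (all genes 2.04%) and 0 lower (all genes 1.44%), a count near that background, with a median of −0.18 (0.08 against siRNA 2 replicate 1 and −0.55 against replicate 2). BIRC5, which encodes the chromosomal passenger survivin, stood at 36.9 and 36.2 with siRNA 1, 14.6 and 11 with siRNA 2 and 23.6 and 23.5 in control (difference 1.45, SE 0.192, limma adjusted p = 0.0421). MYBL2, a transcription factor of late cell cycle genes, stood at 11.4 and 10.7, 2.36 and 3.58, and 9.03 and 9.62 in siRNA 1, siRNA 2 and control (difference 1.61, SE 0.216, adjusted p = 0.0423). Both were lowest with siRNA 2. CDC25B, the phosphatase that activates CDK1, stood at 38.2 and 36.8, 55.6 and 60.9, and 93.7 and 94.4 and was not called (adjusted p = 0.104).

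In the list of mesenchymal genes, many of them of the surface and matrix, 5 of 30 tested members were called higher with siRNA 1 (all genes 2.04%) and 0 lower (all genes 1.44%). Of the 30, 19 were positive, beside 4964 of all 11252 genes, and the median was 0.34 (0.59 and 0.12 against siRNA 2 replicates 1 and 2). NRCAM, an immunoglobulin-family adhesion molecule, stood at 97.5 and 104 with siRNA 1, 10.6 and 11.1 with siRNA 2 and 75.7 and 75.4 in control (difference 3.10, SE 0.148, limma adjusted p = 0.0153). NT5E, the ectoenzyme CD73 that makes adenosine, stood at 31.9 and 29.7, 4.91 and 4.81, and 15.2 and 15.9, with control between the reagents (difference 2.44, SE 0.156, adjusted p = 0.0186). ACTA2, smooth muscle actin, stood at 13.9 and 14.3 with siRNA 1, 0.496 and 1.81 with siRNA 2 and 1.54 and 2.27 in control, and THBS1, the matrix glycoprotein thrombospondin 1, at 17.1 and 19, 4.72 and 4.14, and 5.26 and 5.18 (adjusted p = 0.0371 and 0.0303). These 2 genes exceeded control only with siRNA 1. MMP2, a gelatinase (named after its values were seen), was called at low levels of 1.81 and 1.89, 0.384 and 0.534, and 2.24 and 2.38 (adjusted p = 0.0413).

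Among 24 tested genes of epithelial junctions 2 were called higher (all genes 2.04%) and 0 lower (all genes 1.44%). CLDN2, a claudin that forms cation pores, stood at 126 and 120 with siRNA 1, 27.9 and 15.7 with siRNA 2 and 0.113 and 0.110 in control (difference 2.50, SE 0.3, limma adjusted p = 0.0360), so both reagents were above control but to different levels. CLDN4, another tight junction claudin, stood at 3.86 and 4.20, 1.02 and 0.981, and 3.02 and 2.15 in siRNA 1, siRNA 2 and control (adjusted p = 0.0422). Of 30 tested collagens, laminins and integrins 0 were called with limma (all genes 3.47% in either direction). The 4 with the smallest p (NID1, COL6A2, ITGA5 and ITGA2) had adjusted p of 0.0570, 0.0806, 0.0807 and 0.0836.

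Of 21 tested genes of complement, plasminogen activation and the acute phase, 4 were called lower with siRNA 1 (all genes 1.44%) and 1 higher (all genes 2.04%). Of the 21, 17 were negative, beside 6288 of all 11252 genes, and the median was −1.13 (−0.40 and −1.42 against siRNA 2 replicates 1 and 2). PLAU, the urokinase that activates plasminogen, stood at 13 and 12.9 with siRNA 1, 66.3 and 64.7 with siRNA 2 and 48.3 and 49.6 in control (difference −2.25, SE 0.144, limma adjusted p = 0.0186). PLAUR, its receptor (named after its values were seen), stood at 2.27 and 6.13, 19.2 and 27.8, and 14.1 in both control libraries, and was not called (adjusted p = 0.0673). CD59, which blocks the membrane attack complex of complement, stood at 14 and 14.3 with siRNA 1, 52.3 and 58.6 with siRNA 2 and 50 and 49.2 in control (difference −1.89, SE 0.153, adjusted p = 0.0277). PLAU and CD59 were thus below control with siRNA 1. The complement proteases C1R and C1S (C1S named after its values were seen) stood at 7.16 and 7.69, 20.9 and 21.6, and 11.1 and 12.6, and at 17.1 and 14.7, 36.5 and 40.4, and 23.0 and 20.3 (adjusted p = 0.0360 and 0.0447). SERPINA1, the elastase inhibitor alpha-1-antitrypsin, was called higher, at 4.28 and 4.04, 1.11 and 1.47, and 0.780 and 0.993 (adjusted p = 0.0413).

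Of 23 tested interferon response genes 3 were called lower with siRNA 1 (all genes 1.44%) and 0 higher (all genes 2.04%). Of the 23, 22 were negative, beside 6288 of all 11252 genes, and the median was −0.69 (−0.50 and −0.93 against siRNA 2 replicates 1 and 2). IFITM1 and IFITM3, membrane proteins that hinder virus entry, stood at 0.646 and 0.469 and at 3.65 and 3.81 with siRNA 1, at 2.56 and 2.94 and at 11.5 and 9.24 with siRNA 2, and at 2.40 and 1.76 and at 13.2 and 12.6 in control (limma adjusted p = 0.0423 and 0.0449). The third was IRF7, an interferon regulatory factor (named after its values were seen), at 0.167 and 0.214, 1.14 and 1.28, and 1.34 and 1.10 (adjusted p = 0.0421). In all 3 genes every siRNA 1 library was below every siRNA 2 and control library. OAS3, a synthetase activated by double-stranded RNA, was the member with the opposite sign, at 7.94 and 6.95, 1.53 and 2.98, and 8.40 and 8.73 (adjusted p = 0.0676).

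The sensors of double-stranded RNA, which could meet a transfected duplex, had 8 tested members with 0 called by limma and a median of 0.12. The 15 tested genes of the RNA interference machinery had 0 called and a median of −0.08 that changed sign with scaling. With 3.47% of all genes called in either direction, lists of this size would hold few calls. TARBP2, the partner of Dicer, stood at 10 and 7.24 with siRNA 1, 16.8 and 27.9 with siRNA 2 and 7.90 and 6.91 in control (difference −1.25, adjusted p = 0.106). Of 16 tested NF-kB targets and cytokines 1 was called (all genes 3.47% in either direction). This was the monocyte chemokine CCL2, at 1.65 and 1.31 with siRNA 1, 10.7 and 13.4 with siRNA 2 and 7.47 and 7.02 in control (difference −2.39, SE 0.195, adjusted p = 0.0277).

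Among lysosomal genes, 3 of 38 tested members were called lower (all genes 1.44%) and 0 higher (all genes 2.04%). CTSD, the aspartic protease cathepsin D, had the largest difference of any called gene, at 4.76 and 0.176 with siRNA 1, 413 and 423 with siRNA 2 and 221 and 209 in control (difference −7.33, SE 0.782, limma adjusted p = 0.0355). CTSC, a dipeptidyl peptidase, stood at 4.85 and 5.73, 28.3 and 46.0, and 5.01 and 4.64, and NPC1, which exports cholesterol from lysosomes, at 8.59 and 8.97, 21.6 and 29.7, and 12.9 and 11.8 (adjusted p = 0.0352 and 0.0474). CTSD and NPC1 were below control in both siRNA 1 libraries and above it in both siRNA 2 libraries, and CTSC was above control in both siRNA 2 libraries. In glycolysis and hypoxia 2 of 26 tested genes were called lower (all genes 1.44%) and 0 higher (all genes 2.04%). These were SLC16A3, the lactate exporter MCT4, at 10.5 and 10.9, 80.8 and 54.6, and 28.2 and 40.1, and the aldolase ALDOC at 6.18 and 4.53, 23.5 and 37.1, and 11.1 and 16.4 (adjusted p = 0.0355 and 0.0462). In both, control lay between the reagents.

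SCD, a fatty acid desaturase of lipid synthesis, stood at 905 and 850 with siRNA 1, 367 and 227 with siRNA 2 and 1056 and 1010 in control, and met the 2-fold gap without being called (limma adjusted p = 0.0576). Of 29 tested genes of the integrated stress response, SESN2, given above, was the 1 called (all genes 3.47% in either direction). TRIB3, a pseudokinase induced by ATF4, stood at 52.5 and 46.4, 19.5 and 12.8, and 53.8 and 51.2 (adjusted p = 0.0502). Of 24 endoplasmic reticulum chaperone and UPR genes 1 was called (all genes 3.47% in either direction). This was SDF2L1, a cofactor of the chaperone BiP, at 21.1 and 17.4, 8.26 and 7.79, and 9.64 and 9.79 (adjusted p = 0.0484). The counts of both lists are near the share over all genes.

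Mitochondrial genes are the setting in which TIMM13 works. With 3.47% of all genes called in either direction, lists of this size would hold few calls, and nothing particular to them is read from the counts. The small TIM chaperones and TIM22 complex had 9 tested members and 0 calls by limma, with a median of 0.09. TIMM22, the pore of that complex, stood at 7.95 and 7.60 with siRNA 1, 16.4 and 13.8 with siRNA 2 and 9.98 and 9.77 in control (difference −0.87, SE 0.170, adjusted p = 0.0695), and TIMM9, a small chaperone, at 20 and 21.4, 6.2 and 11.6, and 18.7 and 18.8 (difference 1.19, SE 0.305, adjusted p = 0.111). TIMM8A, the partner of TIMM13, stood at 10.2 and 5.49, 4.83 and 6.73, and 2.50 and 2.77 (difference 0.34, adjusted p = 0.537), with the reagents overlapping. TIMM8B, its close relative, varied within groups, at 19.8 and 18.5 with siRNA 1, 0.420 and 21.4 with siRNA 2 and 11.8 and 0.379 in control (adjusted p = 0.530). In the outer-membrane list 1 of 10 was called, TOMM34, a cytosolic co-chaperone of import, at 18.6 and 20, 5.50 and 5.78, and 10.3 and 10.9 (difference 1.61, SE 0.158, adjusted p = 0.0314), with control between the reagents. The TIM23 translocase and motor (12 tested), the mitochondrial ribosome (75), the mitochondrial chaperones and proteases (19) and the tricarboxylic acid cycle (20) had 0 calls.

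The respiratory chain, with 75 tested members and 0 calls (all genes 3.47% in either direction), had a median of −0.72, and the proteasome, with 34 and 0, one of −0.83. Both medians came mainly from a single library: against siRNA 2 replicate 1 they were 0.09 and −0.20, and against replicate 2 they were −1.64 and −1.65. Cytosolic ribosomal proteins had a median of 0.56 against replicate 1 and −1.83 against replicate 2, and held 4.80% and 5.0% of the table total with siRNA 1, 3.67% and 9.59% with siRNA 2 and 4.28% and 4.20% in control. No direction is given for these lists. Of the 78 ribosomal proteins, RPL29 and RPL23A were called higher (all genes 2.04%) and 0 lower (all genes 1.44%), a count near that background. In both genes both siRNA 2 libraries were low: RPL29 stood at 550 and 545 with siRNA 1, 122 and 73.1 with siRNA 2 and 501 and 492 in control, and RPL23A at 308 and 359, 32.7 and 72.2, and 216 and 222 (limma adjusted p = 0.0355 and 0.0468). Both have many processed pseudogenes that can take reads, so their values are uncertain.

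**Figure D4:**
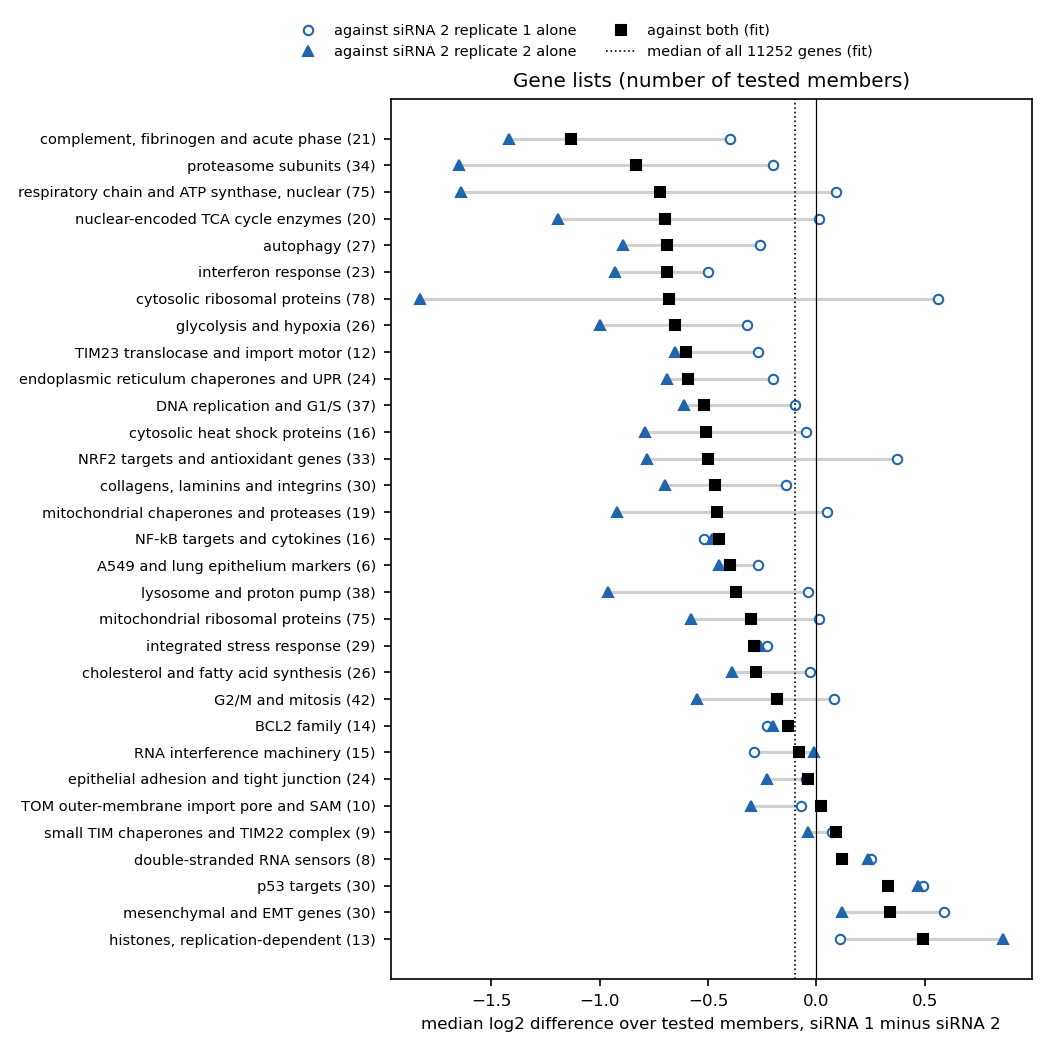
Median log2 difference, siRNA 1 minus siRNA 2, over the tested members of each list (number in brackets): against both siRNA 2 libraries in the fit (square), against replicate 1 alone (open circle) and against replicate 2 alone (triangle), with the median of all genes dotted. The p53 and interferon lists keep their side of 0 against either library, while cytosolic ribosomal proteins run from 0.56 to −1.83.

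The largest differences lay outside these lists as well. HMGA2, a chromatin protein of embryonic and tumour cells, stood at 30.1 and 30.0 with siRNA 1, 3.23 and 1.60 with siRNA 2 and 24.5 and 25.0 in control (difference 3.23, SE 0.276, limma adjusted p = 0.0293). S1PR3, a receptor of sphingosine 1-phosphate, stood at 79.2 and 72.3, 11.9 and 12.7, and 22.3 and 21.9, and the inhibin and activin subunit INHBB at 82.8 and 77.2, 15.1 and 8.27, and 53.4 and 50.3 (adjusted p = 0.0178 and 0.0353). In all 3 genes every siRNA 1 library lay above both control libraries and every siRNA 2 library below them. For HMGA2, S1PR3 and INHBB, siRNA 1 minus control was 0.27, 1.73 and 0.62 (limma adjusted p = 0.661, 0.0398 and 0.351). In the same order, siRNA 2 minus control was −2.96, −0.79 and −2.11 (adjusted p = 0.0337, 0.0728 and 0.0494). HMGA2 and INHBB were thus not detectably above control with siRNA 1. FBXW10B and FBXW10, F-box proteins from near-identical gene copies whose reads may be shared, were at 24.4 and 22.8 and at 13 and 13.7 with siRNA 1, at 0.370 and 0.205 and at 0.0328 and 0.315 with siRNA 2, and at 8.96 and 9.44 and at 6.32 and 5.79 in control. TMEM187, a membrane protein, stood at 16.1 and 14.8, 2.39 and 1.80, and 8.27 and 8.58, and P2RY11, a purinergic receptor, at 6.49 and 6.60 with siRNA 1, 0 and 0.729 with siRNA 2 and 4.56 and 4.17 in control. JPT2, a binding protein of the second messenger NAADP, and GJA1, the gap junction protein connexin 43, were on opposite sides of control. JPT2 stood at 69.9 and 64.0, 12.3 and 14.6, and 32.9 and 32.1, and GJA1 at 105 and 98.7, 31.4 and 19.2, and 55.6 and 54.9 (adjusted p = 0.0277 and 0.0423).

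Of the 14 largest differences towards siRNA 2 that passed the filters for naming, many were genes at or near control with siRNA 2 and low with siRNA 1. DPY19L1, a C-mannosyltransferase, stood at 1.04 and 0.944 with siRNA 1, 66.4 and 57.4 with siRNA 2 and 43.6 and 46.0 in control (difference −4.98, SE 0.167, limma adjusted p = 0.0153). DDX17, an RNA helicase, stood at 6.53 and 4.86, 94.5 and 67.0, and 81.6 and 83.1, and RHOC, a small GTPase of cell migration, at 6.11 and 4.41, 56.7 and 70.3, and 51.9 and 59.9 (adjusted p = 0.0227 for both). The endosomal protein TM9SF4, the RAB1 regulator TBC1D20 and RUSF1 had the same shape, between 1.16 and 2.41 with siRNA 1, 19.2 and 27.5 with siRNA 2 and 16.8 and 30.8 in control. PAF1, a subunit of the polymerase-associated elongation complex, and the lipid carrier APOE had control between the reagents. PAF1 stood at 2.53 and 1.85, 26.1 and 46.2, and 14.9 and 15.8, and APOE at 0.596 and 0.567, 15.3 and 16.7, and 8.64 and 6.67. YPEL3, a small protein linked to growth arrest, was of the same kind, at 2.17 and 2.15, 9.11 and 13, and 6.17 and 4.63 (adjusted p = 0.0413).

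A second set was near control with siRNA 1 and high with siRNA 2. SRSF2, a splicing factor of the SR family, stood at 14.6 and 14.3 with siRNA 1, 137 and 142 with siRNA 2 and 11.9 and 10.8 in control (difference −3.18, SE 0.150, limma adjusted p = 0.0153). AMIGO2, a neuronal adhesion molecule, stood at 20.2 and 19.9, 258 and 198, and 25.3 and 25.5, and CHMP1A, an ESCRT-III subunit, at 1.14 and 1.36, 24.5 and 21.3, and 0.784 and 0.643 (adjusted p = 0.0154 and 0.0153). ABCF2, an ATP-binding protein, was listed at 0 in both siRNA 1 libraries, stood at 17.4 and 24.0 with siRNA 2 and was at 0 and 0.00198 in control. The readthrough ABCF2-H2BK1, which shares exons with it (named after its values were seen), was at 9.44 and 8.34 with siRNA 1, at 0 in both siRNA 2 libraries and at 6.53 and 5.91 in control, so the 2 symbols moved in opposite directions and the signal of each is uncertain.

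**Figure D5:**
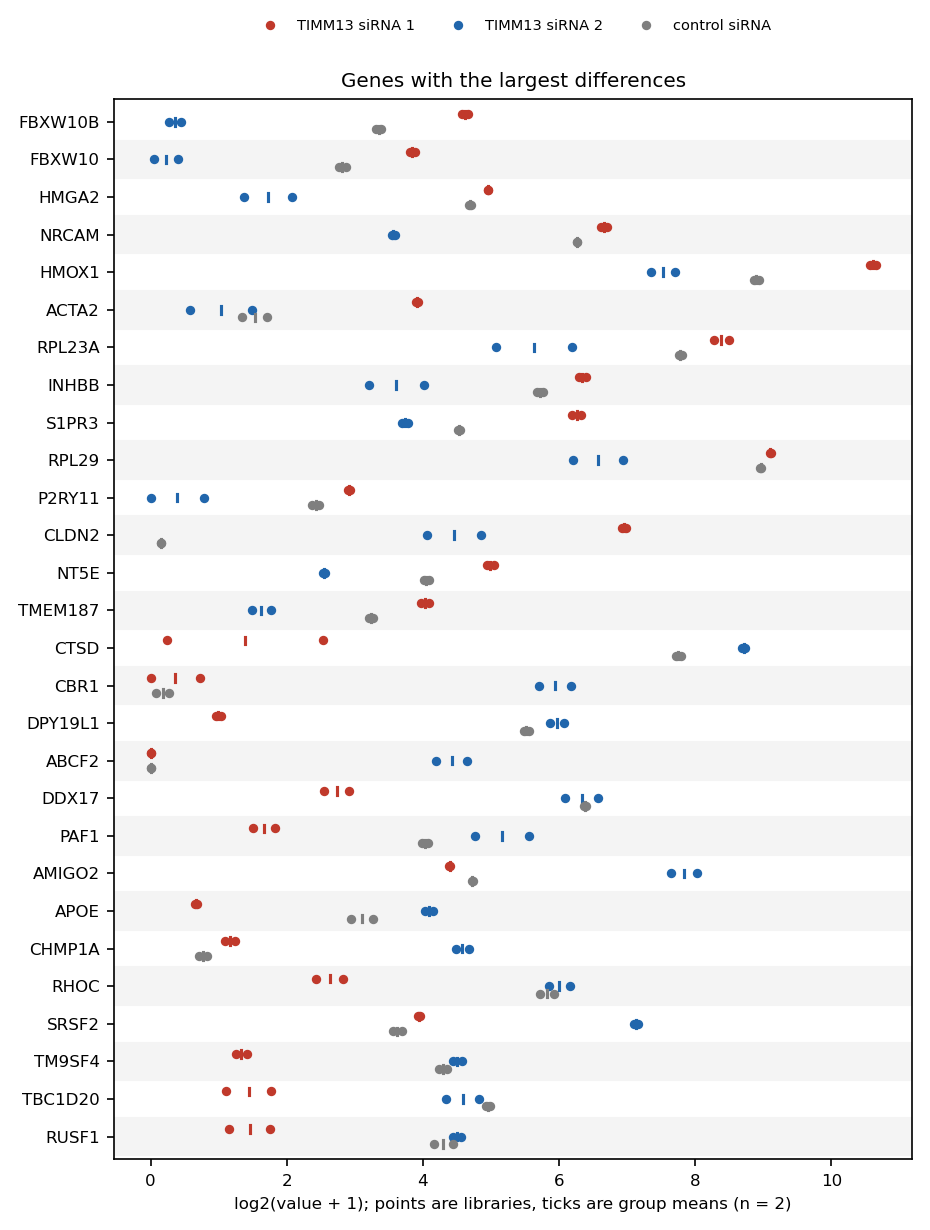
Log2(value + 1) of the 14 highest (FBXW10B to TMEM187) and 14 lowest (CTSD to RUSF1) called differences among genes that passed the filters for naming. These filters are a 2-fold gap, a mean of at least 1 and no clone-style, non-coding, readthrough or pseudogene name. The highest difference of any called gene, 4.82, was left out by them. Colours are siRNA 1 in red, siRNA 2 in blue and control in grey, with points for libraries and ticks for means of 2. The siRNA groups cannot overlap in any row, because the 2-fold gap was required. Control lies near siRNA 1 for SRSF2 and near siRNA 2 for DDX17.

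The table gives 1 value per gene symbol, and how it combined a gene's transcripts is stated in no source used here. Where the mean over the libraries reached 5, replicates were over 2-fold apart at 3.83% with siRNA 1, 9.29% with siRNA 2 and 2.73% in control for the 366 genes with 1 annotated transcript, and at 12.4%, 33.4% and 12.9% for the 1209 genes with 16 or more. The share of called genes was 3.55% and 2.32% in these classes. Of the 391 called genes 25 had 1 transcript, among them FTL, INHBB, SESN2 and TOMM34, and a change of transcript cannot be told apart from one of level in the other genes. Other single-transcript calls, named after their values were seen, were higher with siRNA 1 for the small GTPase NRAS, at 31.1 and 36.6 with siRNA 1, 12.1 and 8.28 with siRNA 2 and 25.5 and 24.7 in control, and for NUDT3, a hydrolase of diphosphoinositol polyphosphates, at 9.79 and 9.70, 2.51 and 1.57, and 7.13 and 6.82 (limma adjusted p = 0.0437 and 0.0360). TUSC1 stood at 9.13 and 9.47, 1.31 and 1.35, and 6.97 and 6.35, and the Golgi protein TMEM115 at 26.7 and 22.1, 6.10 and 5.05, and 15.9 and 13.9 (adjusted p = 0.0274 and 0.0315). All 4 were below control with siRNA 2. The stem cell transcription factor SOX2, at 3.61 and 2.92, 0.920 and 0.851, and 0.886 and 0.784, was above control only with siRNA 1 (adjusted p = 0.0360). In the other direction, GNAI3, an inhibitory G protein subunit, stood at 1.20 and 1.25 with siRNA 1, 12.2 and 11 with siRNA 2 and 0.999 and 0.977 in control, and the bile acid transporter subunit SLC51B at 12.2 and 12.6, 36.6 and 41.0, and 24.3 and 31.0 (adjusted p = 0.0154 and 0.0369). The Wnt receptor FZD8 was listed at 0 with siRNA 1, stood at 3.09 and 2.09 with siRNA 2 and was listed at 0 in control.

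Some genes stood apart from control in the same direction with both reagents. Both changes use the same 2 control libraries, so an error in control would shift both alike. There were 27 genes that each siRNA changed from control in the same direction by at least 2, with a limma adjusted p under 0.05 for both. Of these, 3 were called between the reagents (all genes 3.47% in either direction). The 27 were chosen for large changes, so no result is read from this count. The 3 were CLDN2, given above, HSDL2, a steroid dehydrogenase-like protein of peroxisomes, and SEC62, a component of the endoplasmic reticulum translocon. HSDL2 stood at 27.2 and 25.2 with siRNA 1, 6.61 and 6.46 with siRNA 2 and 0.343 and 0.276 in control, and SEC62 (named after its values were seen, as was HSDL2) at 0.226 and 0.395, 7.12 and 6.21, and 36.4 and 36.9. For 10 of the 27 the 95% interval of the difference lay within 1 of 0 on the log2 scale. The genes given next were chosen for the smallest differences, so intervals around 0 follow in part from that choice. The closest were UQCRB, a subunit of respiratory complex III, at 56.1 and 52.7 with siRNA 1, 52.6 and 55.7 with siRNA 2 and 10.6 and 8.80 in control (interval −0.44 to 0.45), and FCHO2, an endocytosis factor, at 9.93 and 10.5, 10.2 and 9.02, and 0.617 and 0.845 (interval −0.38 to 0.54). For PSMD11, a proteasome subunit, at 35.6 and 32.4, 24.1 and 49.7, and 2.64 and 3.20, the interval of −1.01 to 0.96 was wider. ATP9A, HCCS, MAEA, RCC1L and ENOSF1 had differences between −0.29 and 0.28, with intervals between −0.84 and 0.79.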

How the data were processed

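The authors deposited a table with 1 non-negative signal value per gene symbol and library, which appears scaled to library depth and transcript length. No source used here says whether it is FPKM or TPM. Trim Galore, STAR, featureCounts and hg38 are named in the submitters' processing notes, with no versions, roles or order. Control columns are headed NC and were matched to the samples titled as non-targeting.

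Values were used as log2(value + 1) without further scaling. The 11252 of 19990 genes that reached 1 in 2 or more of the 4 TIMM13 siRNA libraries were kept. All 6 libraries entered a linear model with a term for each group (3 residual degrees of freedom) with limma 3.58.1 in R 4.3.3 (eBayes, trend and robust), with Benjamini-Hochberg adjustment over all 11252 genes. An exact permutation test of 2 against 2 libraries cannot go below p = 0.333 and was not used.

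Genes named are TIMM13, the 14 highest and 14 lowest called differences with a 2-fold gap, up to 6 called genes a direction on opposite sides of control, up to 4 members of each of 34 lists with the smallest p, and 8 genes changed alike by both reagents, all with a mean of at least 1 and without clone-style, non-coding, readthrough or pseudogene names; other genes are said to be named after their values were seen. Some genes that the rule names are not reported here. Of 19990 symbols, 99.2% matched GENCODE 29 for positions and transcript numbers, through current symbols. The comparison, the lists and the members were chosen with earlier results of these data known.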

Additional observations from a re-analysis of the deposited data

How the results depend on the processing

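The 391 called genes became 239 with no filter on low values, 80 with upper-quartile scaling, 38 with equal totals, 5 with library weights, 0 in the fit of the 4 siRNA libraries alone, 0 with the replicate block and 78 among genes with 1 annotated transcript, where only 631 were tested. Leaving out 1 library gave 0 to 4586 calls. A pseudocount of 0.1, a minimum value of 5, median ratio scaling and eBayes without its options gave counts within 1.5 times the main count. The sign of every called gene tested was kept under each alternative run. Where the siRNA libraries, scaling and pseudocount were unchanged this was fixed in advance, the difference of means being the same. In the other runs the genes had still been called from these same libraries, so a kept sign is no separate support. Upper-quartile scaling moved the median of all genes from −0.0963 to 0.0575.

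The genes with a 2-fold gap numbered 560, 873 with a pseudocount of 0.1, and 930 to 2587 with 1 siRNA library left out, where the rule has 1 library fewer to meet. Of 31 lists 25 had a median below 0, and 6 did among genes with 1 transcript, where most lists have few members.

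The difference of TIMM13 was 0.08 with upper-quartile scaling and with equal totals, 0.01 with median ratio scaling, and −0.16 to 0.07 with 1 library left out. That of PSMD11 was 0.16, 0.16 and 0.05 under these scalings. With 1 library left out the difference of PSMD11 was −0.54 to 0.48, TIMM8A −0.05 to 0.73, TIMM8B −0.16 to 3.83, UQCRB −0.04 to 0.05, ATP9A −0.01 to 0.45, SPPL2B −2.08 to 0.24 and LSM7 0.0 to 0.60, the last 2 being neighbours of TIMM13. For the changes under other scalings, weights and filters the cause was not tested.

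The replicate numbers do not pair the libraries by any label. Deviations of same-numbered libraries correlated at 0.0465 between siRNA 1 and siRNA 2, 0.000713 between siRNA 1 and control and −0.00510 between siRNA 2 and control. Count tests were not run because the table holds no counts.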
